A study of Mus musculus with 24 samples.

Results

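Messenger RNA of AMPK KO mouse embryonic fibroblasts (MEFs) was compared between the earliest cell passage that was sequenced and the passages that followed. MEFs are connective tissue cells grown from mouse embryos, and a passage is 1 transfer of the cells to fresh dishes. The 3 AMPK KO libraries labelled passage 16 were set against the 9 AMPK KO libraries labelled passage 17, 18 or 19, out of 24 libraries in the series. The other 12 libraries are wild-type (WT) MEFs of passages 12 to 15. AMPK KO cells, called prkaa1 prkaa2 double-knockout in the study, lack both catalytic subunits of the AMP-activated protein kinase. Each passage gave 1 library from cells given the solvent DMSO, 1 from cells given the AMPK activator MK-8722 and 1 from cells given torin1, which inhibits MTOR, the kinase that promotes growth when nutrients are plentiful. Treatment was therefore balanced over passages and entered the model as a term. Of 55487 genes in the count table, 15867 passed the filter on low counts in the AMPK KO libraries, and the 15311 of these on chromosomes 1 to 19 are described.

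The labels do not say whether the 3 libraries of a passage came from 1 culture. If they did, 1 culture stands against 3, and p-values over 12 libraries measure only the spread between libraries. A permutation over the 4 passages cannot give an exact p below 0.25. The deposited labels also give a single batch, and the day of culture or harvest is not among them, so passage number and day cannot be told apart. Each genotype was 1 cell line obtained from another laboratory.

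Fibroblasts secrete collagens, fibulins and cross-linking enzymes, which assemble into the extracellular matrix. Cells kept in culture can drift as they are passaged, through selection of faster-growing cells and through changes in chromatin, and genes of the matrix, of growth control and of imprinted loci are among those known to vary between fibroblast cultures. Genes of sterol synthesis are switched on by the transcription factor SREBF2 when cells are short of cholesterol, and genes of the integrated stress response by ATF4 when amino acids are short or the endoplasmic reticulum is under strain. Both programmes respond to medium and cell density.

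AMPK KO cells of passage 16 had higher mRNA of several matrix and imprinted genes, such as Col1a2, Fbln5, Mmp2 and Igf2, and lower mRNA of other collagens and of some sterol and fatty acid enzymes. In all, 317 autosomal genes were higher and 211 were lower at passage 16 by edgeR's quasi-likelihood test (at least 1.2-fold, with an adjusted p below 0.05). These are 2.07% and 1.38% of the genes tested. The median fold among the 528 genes was 1.32, and 53 of them differed by at least 2-fold. The median log2 fold change over all autosomal genes was 0.0032. Of the genes called, 491 were annotated as protein-coding.

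Libraries of passage 16 held 29626051 to 31980973 counts and later libraries 30035708 to 33467654. RNA integrity numbers were 9.9 to 10 at passage 16 and 9.8 to 10 later, and with this number as a covariate 171 genes were higher and 148 lower. After the mean of each treatment was removed, the first principal component took 20.1% of the variance. On it the passage 16 libraries in DMSO and MK-8722 scored 23.2 and 24.8, and that in torin1 scored 9.81, while later libraries lay between -19.7 and 6.71. The torin1 library of passage 16 thus stood nearer to the later libraries than the other two did. Deviations from the treatment means correlated at 0.119 to 0.364 between libraries of passage 16, at 0.203 to 0.242 within passage 17 and at 0.106 to 0.133 within passage 18. Those of passage 19 correlated at -0.013 to 0.057, within the range of the 36 pairs of differing passage (-0.192 to 0.077, median -0.040). These correlations are across genes, which are not independent replicates, and the libraries were centred on means that they share.

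Both catalytic subunit genes of AMPK were still transcribed in cells labelled AMPK KO. Prkaa1 measured 64.6 to 80.7 CPM (counts relative to the TMM-scaled library total) in 12 AMPK KO libraries and 72.3 to 86.3 CPM in 12 WT libraries, on a scale set over all 24. Gene counts cover the whole gene and do not check a deletion of part of it. Between passages, Prkaa1 differed by a log2 fold change of 0.04 ± 0.04 (SE, 3 against 9 libraries; adjusted p = 0.64, edgeR). Prkaa2 was higher at passage 16 by 0.46 ± 0.13 (adjusted p = 0.034). It measured 4.73, 4.42 and 5.82 CPM in DMSO, MK-8722 and torin1 at passage 16, against 2.46 to 3.63, 2.73 to 3.77 and 4.49 to 5.28 CPM later. In each treatment the passage 16 library lay above the 3 later ones. The other 5 AMPK subunit genes did not pass.

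Among genes with a mean of at least 5 CPM, those of the extracellular matrix led the higher group. The 12 higher and 12 lower genes chosen by rule were required to have the passage 16 library outside all 3 later libraries in each treatment, so their lack of overlap within treatments is no result. Col1a2, which encodes the alpha2 chain of type I collagen (chromosome 6, 4504814 to 4541544, GRCm38), measured 49.9 CPM at passage 16 in DMSO against 22.5 to 24 later. In MK-8722 it measured 40.6 against 18.2 to 20.2 CPM, and in torin1 20.1 against 10.4 to 12.3 CPM. The log2 fold change was 1.02 ± 0.05 (adjusted p = 1.2e-07). Col1a1, which encodes the partner alpha1 chain (chromosome 11, 94936224 to 94953042), differed the other way. It measured 942 against 1075 to 1205 CPM in DMSO, 871 against 996 to 1044 CPM in MK-8722 and 325 against 466 to 561 CPM in torin1, a log2 fold change of -0.38 ± 0.07 (adjusted p = 0.0050). The genes of the alpha1 and alpha2 chains of type I collagen thus passed in opposite directions in the same libraries.

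The promoter of Col1a2 is shown because this gene had the smallest adjusted p among autosomal genes, and those of Hmgcs1, Srebf2 and Msmo1 because these sterol genes were lower at passage 16. Shown are the 250 bases before the RefSeq start (GRCm38.p6), 5′ to 3′ on the gene's strand. They lie at chr6:4505368-4505617 on the plus strand, chr13:119690101-119690350 on the plus strand, chr15:82147019-82147268 on the plus strand and chr8:64733579-64733828 on the minus strand. Capitals mark the CCAAT box (CCAAT) and a core of the sterol regulatory element (TCACNCCAC), each on either strand.
Col1a2: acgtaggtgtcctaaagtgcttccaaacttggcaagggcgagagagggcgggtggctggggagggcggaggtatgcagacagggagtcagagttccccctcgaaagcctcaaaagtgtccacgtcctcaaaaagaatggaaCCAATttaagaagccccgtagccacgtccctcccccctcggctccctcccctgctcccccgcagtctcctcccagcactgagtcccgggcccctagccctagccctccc
Hmgcs1: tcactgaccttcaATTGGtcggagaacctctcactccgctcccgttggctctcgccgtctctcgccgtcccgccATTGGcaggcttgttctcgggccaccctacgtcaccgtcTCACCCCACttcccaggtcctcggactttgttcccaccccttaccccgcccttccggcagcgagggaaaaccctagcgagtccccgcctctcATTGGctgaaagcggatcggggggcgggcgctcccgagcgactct
Srebf2: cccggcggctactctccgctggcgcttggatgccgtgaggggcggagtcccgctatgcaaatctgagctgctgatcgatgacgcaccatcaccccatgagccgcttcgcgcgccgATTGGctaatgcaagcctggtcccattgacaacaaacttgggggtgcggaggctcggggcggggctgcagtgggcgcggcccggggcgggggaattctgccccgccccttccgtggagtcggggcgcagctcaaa
Msmo1: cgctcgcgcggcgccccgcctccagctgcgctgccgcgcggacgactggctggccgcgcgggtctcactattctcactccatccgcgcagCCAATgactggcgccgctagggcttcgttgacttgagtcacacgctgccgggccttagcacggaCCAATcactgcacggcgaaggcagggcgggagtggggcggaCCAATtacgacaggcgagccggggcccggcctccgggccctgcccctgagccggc
The windows of Col1a2, Srebf2 and Msmo1 lie wholly or partly inside the gene as the annotation used here draws it, since RefSeq places the start further in. RefSeq windows were found for 79 of the 121 genes named by rule. Over 32851 promoter windows of this length, 33.8% held a CCAAT box and 1.05% the sterol element core. Among 18 windows of 15 genes of sterol synthesis and uptake, 14 held a CCAAT box and 1 the sterol element core, that of Hmgcs1. Among 31 windows of 25 matrix genes, 10 held a CCAAT box. A match describes the letters and does not show that a factor binds.

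Fbln5 and Fbln2 encode fibulins, which take part in building elastic fibres. Fbln5 (chromosome 12, 101746565 to 101819055) measured 30.9 CPM at passage 16 against 11.7 to 14.5 later in DMSO, 45.2 against 18.9 to 21 in MK-8722, and 7.19 against 5.49 to 6.01 in torin1. Its log2 fold change was 1.0 ± 0.11 (adjusted p = 0.00035). The difference was 1.195 in DMSO, 1.2 in MK-8722 and 0.31 in torin1, where Fbln5 was lowest at every passage. Fbln2 was higher by 0.99 ± 0.08 (adjusted p = 4.5e-05), with 24 to 26.8 CPM at passage 16 and 11.1 to 16.8 CPM later. Lox, the oxidase that cross-links collagen and elastin, was higher by 0.96 ± 0.09, with 7.07 to 8.73 CPM at passage 16 and 3.21 to 5.40 CPM later. For Fbln2 and Lox the 3 passage 16 libraries lay above all 9 later libraries. Both genes were picked for lying apart within each treatment, so this is a description and no result.

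**Figure D1:**
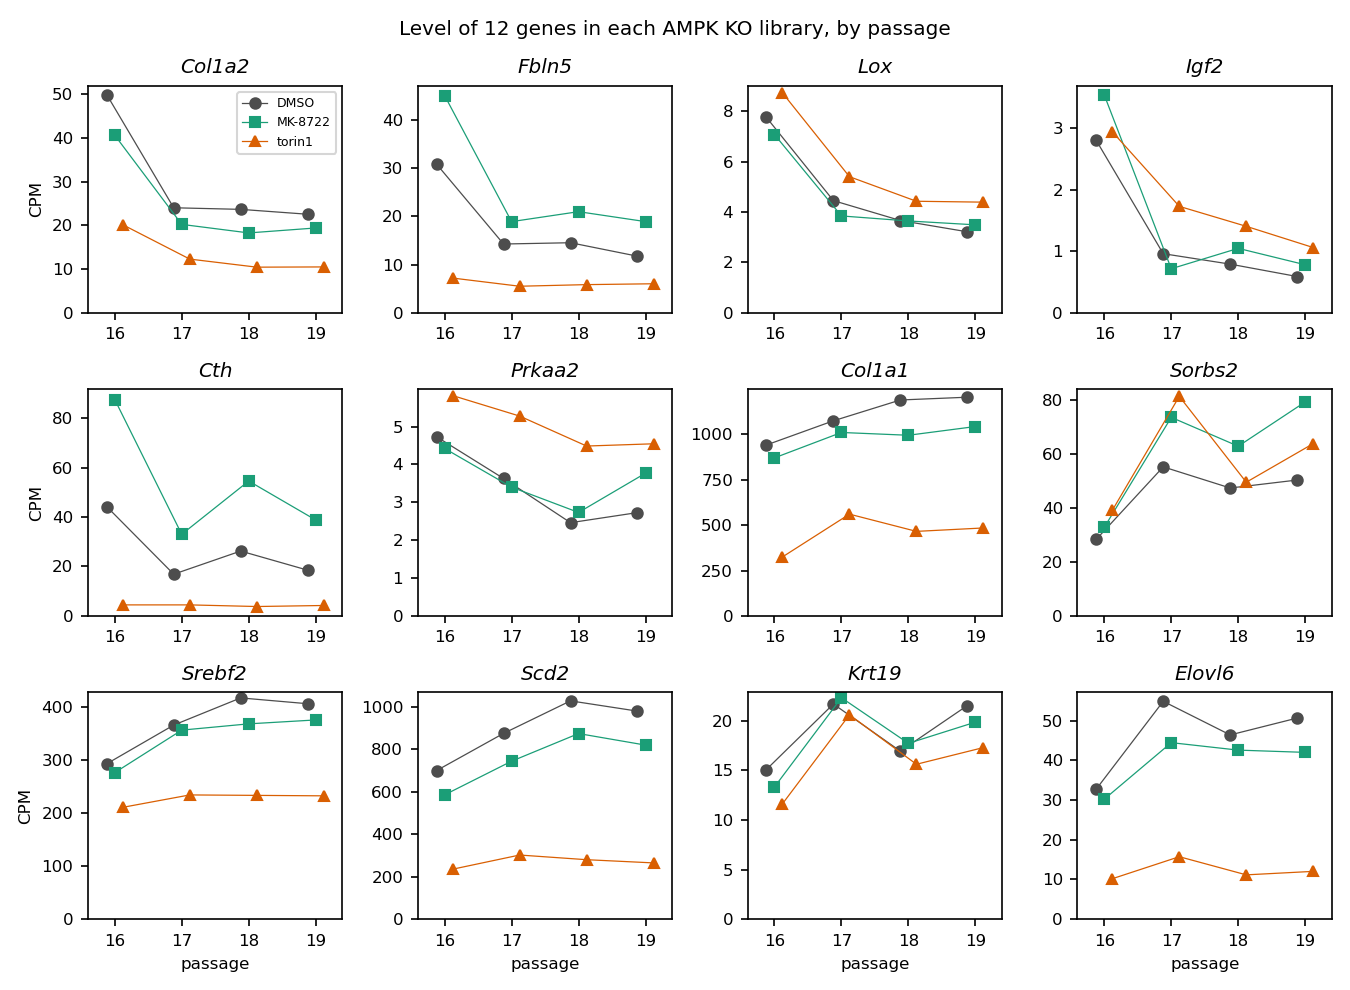
CPM of 12 genes (y axis, from 0) by passage (x axis), with 1 point for each of 12 AMPK KO libraries and lines joining libraries of 1 treatment (grey circles DMSO, green squares MK-8722, orange triangles torin1). Col1a2 fell from 49.9 CPM at passage 16 to between 22.5 and 24 CPM in DMSO, while Srebf2 stood at 293 CPM at passage 16 and at 366 to 418 CPM later.

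The whole list of 34 collagen and matrix genes tested had 7 members higher and 7 lower at passage 16, 41.2% of the list. Over all autosomal genes, 2.07% were higher and 1.38% lower. The list had a median log2 fold change of -0.09. Higher were Postn, Col6a3, Col1a2, Fbln5, Fbln2, Lox and Col3a1. Postn was scarce, with 21, 21 and 27 counts in DMSO, MK-8722 and torin1 at passage 16 and 2 to 12 later. Lower were Col1a1, Col8a1, Col4a1, Col4a2, Col5a1, Loxl2 and Col16a1, by log2 fold changes of -0.26 to -0.38. Col4a1 and Col4a2 encode the chains of basement membrane collagen, and both differed by -0.33. Summed over the list, passage 16 libraries held 9816 to 10982 CPM and later libraries 10531 to 12551 CPM. In the list of matrix proteases and inhibitors, 1 of 17 genes was higher and 3 were lower. Mmp2, a gelatinase, was higher by 1.06 ± 0.13 (adjusted p = 0.00047), with 4.64 to 5.82 CPM at passage 16 and 2.07 to 3.35 CPM later. The inhibitor gene Timp3 and the plasminogen activator gene Plat were lower by -0.34 and -0.43.

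Imprinted genes are expressed from 1 parental copy, and several regulate embryonic growth. Of 19 imprinted genes tested, 7 were higher at passage 16 and 0 were lower (all autosomal genes 2.07% and 1.38%), with a median of 0.08. They were Meg3, Igf2, Rian, H19, Peg3, Grb10 and Plagl1. Igf2, a fetal growth factor (chromosome 7, 142650766 to 142666816), had 87, 112 and 94 counts in DMSO, MK-8722 and torin1 at passage 16 and 17 to 56 in the 9 later libraries, and its log2 fold change was 1.65 ± 0.19 (adjusted p = 0.00043). H19, the non-coding RNA next to it (chromosome 7, 142575529 to 142578143), had 126, 117 and 94 counts at passage 16 and 22 to 55 later (1.5 ± 0.21, adjusted p = 0.0010). Meg3, a maternally expressed non-coding RNA of chromosome 12, had 12, 12 and 13 counts at passage 16 and 0 to 4 later. These transcripts were scarce in every AMPK KO library. For each of Igf2, H19 and Meg3 the groups did not overlap, but these genes were named because they passed. The lack of overlap is therefore a description, and the share of all genes without overlap was not counted.

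Several genes that were higher at passage 16 were far more abundant in WT. On the 24-library scale, Col1a2 averaged 2155 CPM in WT, 34.7 CPM in AMPK KO at passage 16 and 16.9 CPM later. Mmp2 averaged 271, 5.10 and 2.45 CPM, Fbln2 556, 24.2 and 12.2 CPM, and Igf2 16.9, 2.92 and 0.955 CPM. Other higher genes were scarcer in WT than in AMPK KO. In the same order, Irf8 averaged 0.080, 8.79 and 5.87 CPM, Extl1 1.09, 19.2 and 11.6 CPM, and Kif1a 0.519, 6.86 and 4.16 CPM. Col1a1, which was lower at passage 16, averaged 2766, 670 and 843 CPM in the same order. A set of 35 autosomal genes with a WT mean above 20 CPM and more than 30 times the AMPK KO mean was chosen after seeing these values, so its levels are a description. The median level of this set, in percent of WT, was 1.68 to 1.99 in the passage 16 libraries and 1.10 to 1.43 in the later ones. In percent of the WT mean, the level at passage 16 minus the later level had quartiles of 0.0494 and 0.869 over the set. It came to 0.826% for Col1a2, 0.977% for Mmp2, 2.16% for Fbln2, 10.9% for Col6a3, 11.7% for Igf2, 12.0% for Meg3 and 28.3% for H19, of which the last 4 are outside the set. The part of WT transcripts in these differences was not tested.

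In bulk RNA, more cells of a kind and more RNA per cell cannot be told apart. Of 8 fibroblast markers tested, 3 were higher (Thy1, Col1a2, Col3a1) and 3 lower (Vim, Col1a1, S100a4), against 2.07% and 1.38% of all autosomal genes. The summed level of the 8 was 2639 to 3020 CPM at passage 16 and 3188 to 3622 CPM later. Thy1 was scarce, with 10, 15 and 20 counts in DMSO, MK-8722 and torin1 at passage 16 and 4 to 10 later. None of the 3 macrophage and blood markers tested passed, with sums of 3.89 to 4.67 CPM at passage 16 and 4.06 to 5.37 CPM later, and none of the 4 endothelial markers passed, with sums of 1.64 to 4.29 against 1.65 to 4.14 CPM. Of 3 epithelial markers, Krt19 passed and was lower (17.1 to 19.9 against 20.8 to 27.5 CPM for the sum). None of 4 neural, 2 muscle and 2 adipocyte markers passed, and neither pluripotency marker was left after the filter. Of 5 cartilage and bone markers tested, only Alpl passed and was higher, by 0.70 ± 0.17. In torin1 its 2.50 CPM at passage 16 lay within 1.94 to 2.58 CPM later. Runx2 (-0.12 ± 0.07) and Col2a1 (0.10 ± 0.07) were among those that did not pass. The part of a changed cell mixture in the results was not tested.

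The other named genes of the higher group were Kif1a, a motor of vesicle transport along microtubules, Syt7, a calcium sensor of membrane fusion, Nrxn2, a neuronal adhesion protein, Olfm1, a secreted olfactomedin, Irf8, a transcription factor of myeloid cells, and Extl1, Hectd2 and Tbc1d8. Kif1a measured 5.12 against 3.22 to 3.63 CPM in DMSO, 4.67 against 2.96 to 3.64 CPM in MK-8722 and 11.9 against 5.31 to 7.14 CPM in torin1 (0.68 ± 0.11, adjusted p = 0.0020). Irf8 was higher by 0.61 ± 0.13 (adjusted p = 0.0105). Extl1 was close to the threshold (0.67 ± 0.20, adjusted p = 0.0495), with 16.5 CPM at passage 18 against 19.3 CPM at passage 16 in DMSO, and leaving out any of 9 single libraries ended its call.

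Among the lower genes, Sorbs2, an adaptor protein of stress fibres and cell junctions (chromosome 8, 45507788 to 45827906), differed by -0.90 ± 0.12 (adjusted p = 0.00085). It measured 28.3 CPM at passage 16 against 47.3 to 55.1 later in DMSO, 32.8 against 62.7 to 79.1 in MK-8722 and 39.0 against 49.4 to 81.2 in torin1. All 3 passage 16 libraries lay below all 9 later ones, which describes a gene picked for lying apart within each treatment and is no result. Gpr149, an orphan receptor, was lower by -0.82 ± 0.12, with 6.13 to 9.85 CPM at passage 16 and 12.6 to 17.0 CPM later. Wnt7b, a secreted signalling protein, was lower by -0.76 ± 0.17. Its differences were -1.14 in DMSO, -0.93 in MK-8722 and -0.12 in torin1, where 4.0 CPM at passage 16 stood just under 4.02 to 5.09 CPM later. F2rl1, a protease-activated receptor, was lower by -0.59 ± 0.07 (adjusted p = 0.00047), with 10.9 to 11.4 CPM at passage 16 and 12.9 to 19.0 CPM later. Rem2, Cd24a, Fgd3, Cemip, Krt19, Adamts9 and Plek2 were lower by -0.70 to -0.52.

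**Figure D2:**
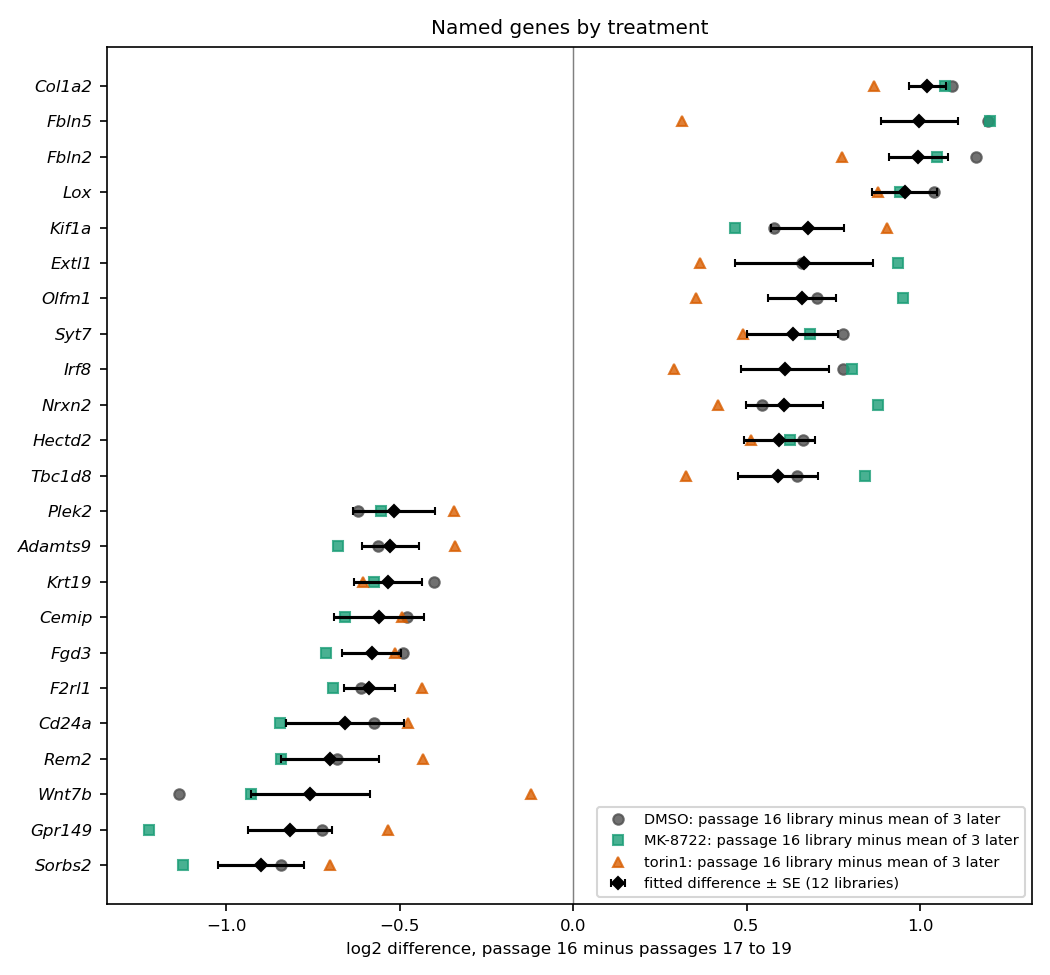
Log2 difference between passage 16 and passages 17 to 19 (x axis) for 12 higher and 11 lower genes named by rule (y axis). Black diamonds are the fitted difference ± SE over 12 libraries, and coloured symbols are the passage 16 library minus the mean of the 3 later libraries of the same treatment. The torin1 triangle of Fbln5 lies at 0.31 and that of Wnt7b at -0.12, nearer to 0 than their other points.

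Of 23 genes of cholesterol synthesis and uptake tested, 6 were lower and 0 higher at passage 16 (all autosomal genes 1.38% and 2.07%). The median of the list was -0.23, with 2 members above 0. Srebf2, the transcription factor of the pathway, was lower by -0.33 ± 0.05 (adjusted p = 0.0016), with 293 against 366 to 418 CPM in DMSO. The enzymes Msmo1, Hmgcs1 and Idi1 were lower by -0.40, -0.32 and -0.32. The list's median difference was -0.37 in DMSO, -0.31 in MK-8722 and -0.05 in torin1. In torin1, 14 of the 23 lay below 0. For Msmo1, 14.3 CPM at passage 16 stood above 13.0 to 14.1 CPM later in torin1.

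In the list of fatty acid and lipid storage genes, 3 of 20 were lower and 0 higher (all autosomal genes 1.38% and 2.07%). They were Elovl6, which elongates fatty acids (-0.52 ± 0.08, adjusted p = 0.0023), Scd2, which desaturates them (-0.40 ± 0.06, adjusted p = 0.0015), and the fatty acid binding protein gene Fabp5 (-0.29 ± 0.05). Scd2 measured 700 CPM at passage 16 against 875 to 1029 later in DMSO, 586 against 744 to 875 in MK-8722 and 235 against 265 to 302 in torin1.

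Of 36 genes of the integrated stress response tested, 6 were higher and 0 lower (all autosomal genes 2.07% and 1.38%), and the median was 0.08. Cth, which makes cysteine from cystathionine, measured 44.2 CPM at passage 16 against 16.9 to 26.2 later in DMSO and 87.6 against 33 to 54.6 in MK-8722. In torin1 it measured 4.44 CPM at passage 16, within 3.78 to 4.44 CPM later. The log2 fold change was 0.93 ± 0.16 (adjusted p = 0.0038). Slc7a11, the cystine importer, was higher by 0.45 ± 0.12, Atf5, a transcription factor of the response, by 0.43 ± 0.09, and Vldlr, a lipoprotein receptor, by 0.49 ± 0.13. The glycine transporter gene Slc6a9 and the serine synthesis gene Psph were also higher. In DMSO, passage 18 lay nearest to passage 16 for Cth, Slc7a11, Atf5 and Vldlr, the last with 92.0, 50.1, 78.6 and 55.0 CPM at passages 16 to 19.

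Lysosomal and autophagy genes that the transcription factor TFEB regulates had 3 of 46 members higher and 0 lower (all autosomal genes 2.07% and 1.38%). They were Rragd (0.36 ± 0.09), Sqstm1 (0.31 ± 0.07) and Fnip1 (0.29 ± 0.07). The median of the list was 0.07 with 40 members above 0, and it was 0.01 in DMSO, 0.04 in MK-8722 and 0.14 in torin1. Over all autosomal genes the median was 0.0032. Sqstm1, the autophagy receptor p62, measured 406 against 332 to 351 CPM in DMSO, 512 against 329 to 354 CPM in MK-8722 and 612 against 526 to 616 CPM in torin1.

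Genes of proliferation did not pass. None of 41 DNA replication genes and none of 42 mitosis genes was called, with medians of 0.01 and -0.02. Top2a differed by 0.02 ± 0.03 and Mki67 by 0.05 ± 0.05. Of 28 p53 targets only Trp53inp1 was higher (0.70 ± 0.11), near the 2.07% of all autosomal genes that were higher. Among 22 genes of cell cycle inhibitors and senescence-associated secretion 2 were lower, against 1.38% of all autosomal genes. Cdkn2b, an inhibitor of cyclin-dependent kinases, was among the 2 (-0.30 ± 0.06). No call was made among 37 interferon-stimulated and antigen presentation genes, although 30 of them were positive with a median of 0.17. H2-K1, a class I antigen presentation gene, differed by 0.23 ± 0.15 (adjusted p = 0.36). It measured 636, 407, 669 and 541 CPM in DMSO at passages 16 to 19 and passed the joint test over passages 17 to 19 (adjusted p = 2.4e-06). There was no call either among 78 cytosolic ribosomal protein genes (median -0.07), 78 mitochondrial ribosomal protein genes (-0.04), 75 respiratory chain genes (-0.07), 31 immediate early genes, 21 chaperones of the endoplasmic reticulum and 17 hypoxia genes.

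The remaining lists held few calls. Over all autosomal genes 2.07% were higher and 1.38% lower, so nothing about a list is read from a single call. Tgfb2 and Ltbp2 were lower among 19 YAP and TGF-beta targets, Cnn2 among 18 contractile genes (-0.31 ± 0.04, adjusted p = 0.00047), Hspb1 among 16 heat shock chaperones (-0.27 ± 0.03), Lif among 18 chemokine and NF-kB genes (-0.35 ± 0.09), and Hoxa10 and Hoxb13 among 18 HOX genes. Bmp4 was higher and Wnt5a, Dkk3 and Msx2 lower among 21 genes of Wnt, Hedgehog and BMP signalling. Higher were also Tef among 18 clock genes (0.39 ± 0.07), Eno2 among 20 glycolysis genes (0.32 ± 0.08), Cyp1b1 among 6 targets of the aryl hydrocarbon receptor (0.57 ± 0.10) and Slc7a11 among 23 NRF2 genes.

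**Figure D3:**
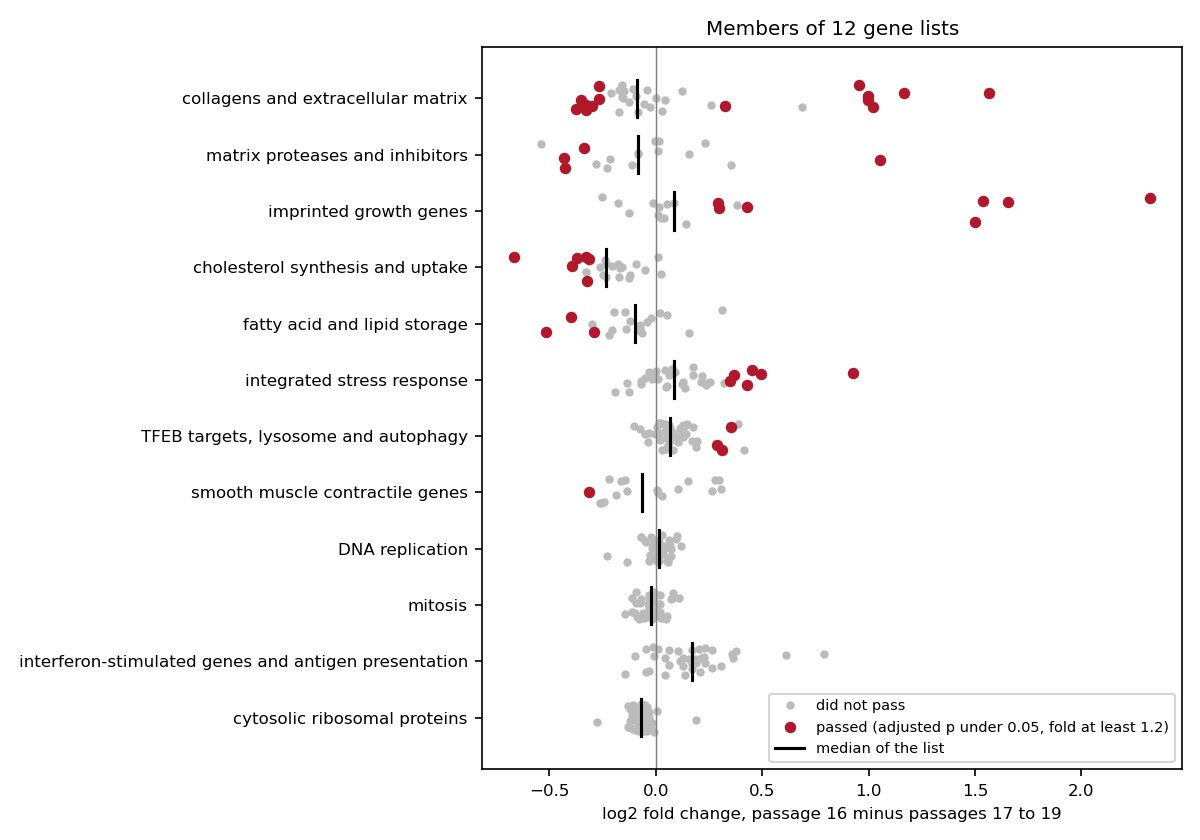
Log2 fold change between passage 16 and later passages (x axis) for members of 12 gene lists (y axis), with 1 point per gene and black bars at list medians. Red points passed the test and grey points did not. Matrix genes lie on both sides of 0 with 7 called in each direction, imprinted genes reach 2.32 (Meg3), and 6 sterol genes are called, all lower.

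Differences were spread over the chromosomes. The median log2 fold change of a chromosome lay between -0.01 (chromosome 15) and 0.03 (chromosome 4), and windows of 51 neighbouring genes had medians of -0.09 to 0.15, the highest on chromosome 17. On chromosome 4 the median was 0.02 to 0.04 in the 3 passage 16 libraries and -0.0048 to 0.0056 in the 9 later ones. With library size alone as scaling, the median over all genes moved to 0.05 and that of chromosome 4 to 0.08.

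Of the genes called higher, 256 of 317 (80.8%) lay above all 3 later libraries in each of the 3 treatments, and of those called lower, 171 of 211 (81.0%) lay below. Over all autosomal genes, 1157 (7.56%) lay above and 1362 (8.9%) below in this way. The calls were made on the same libraries and favour genes that lie apart, so the higher shares among called genes are a description and no result. Differences of the higher group had medians of 0.57 in DMSO, 0.59 in MK-8722 and 0.31 in torin1. The smallest of the 3 differences in absolute size was that in torin1 for 228 of 317 genes, and for 6466 of all 15311 autosomal genes. For the lower group the medians were -0.36, -0.43 and -0.26. The test of whether the passage difference varied with treatment called 0 of 15807 genes (0%) by edgeR, with 868 at an unadjusted p under 0.05 and a smallest adjusted p of 0.12, and 25 by DESeq2. Each treatment had 1 passage 16 library, which the test assumes to vary like the later ones, so the count of 0 does not show that the differences were alike across treatments.

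The steps between single passages were uneven. Between passages 16 and 17, 1237 genes (8.08%) passed, of which 446 were higher and 791 lower at passage 17. Between passages 16 and 18, 389 genes (2.54%) passed, and between 16 and 19, 546 (3.57%). Between passages 17 and 18, 567 genes (3.7%) passed, so passage 16 was not alone in standing apart. Only 37 genes (0.242%) passed between passages 17 and 19 and 38 (0.248%) between 18 and 19. A joint test over passages 17 to 19 called 391 genes (2.55%). These comparisons share libraries.

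**Figure D4:**
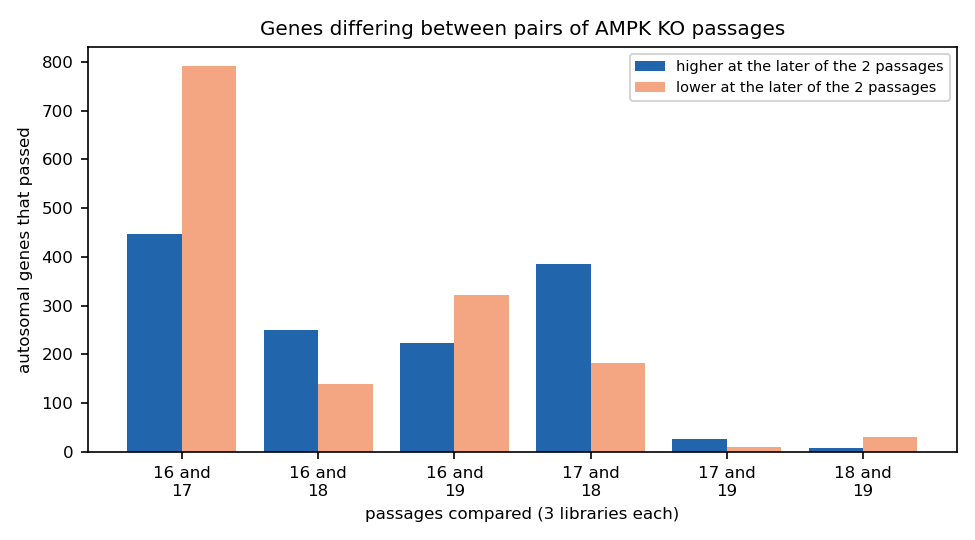
Number of autosomal genes that passed (y axis, from 0) in each comparison of a pair of AMPK KO passages, with 3 libraries each, split into genes higher (blue) and lower (orange) at the later of the pair. Passages 16 and 17 differ in 446 and 791 genes, and passages 18 and 19 in 8 and 30.

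Among the 317 higher genes, the level at passage 16 was nearest to that of passage 18 for 206, of passage 19 for 62 and of passage 17 for 49. Among the 211 lower genes, the nearest was passage 18 for 120. Passage 18 was also the commonest nearest passage over all 15311 autosomal genes, for 6626, with passage 19 for 4782 and passage 17 for 3903. A steady course over passages 16 to 19 was found in 25 higher genes (7.89%) and 18 lower genes (8.53%), against 6.79% of all autosomal genes. Col1a2, Fbln5, Fbln2 and Lox fell between passages 16 and 17 (later minus earlier -0.95, -1.03, -0.85 and -0.79) and did not pass the joint test over passages 17 to 19 (adjusted p = 0.40, 0.79, 0.24 and 0.18). Of the 12 higher and 12 lower genes chosen by rule, 7 had an adjusted p under 0.05 among passages 17 to 19, Extl1, Cd24a and Syt7 among them. At the same limit, with no fold limit, 771 of 15311 autosomal genes passed. The genes were chosen with the same later libraries, so the 7 are a description.

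WT cells offered a parallel comparison, of passage 12 against passages 13 to 15. In the fit of all 24 libraries, 469 genes were higher (2.97%) and 606 lower (3.83%) at the earliest WT passage. The passages differ in number between genotypes, and the labels do not pair them. Genes of cholesterol synthesis and uptake were lower at the earliest passage of WT as well, 22 of 23 with a median of -0.56. Integrated stress response genes were higher in WT, 27 of 36 with a median of 0.41. Collagen and matrix genes in WT were lower in 14 and higher in 2 of 34 cases.

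The difference between genotypes in the early passage effect passed for 354 genes (2.24%) that were more positive in AMPK KO and for 444 (2.81%) that were more negative. Each genotype gave 1 cell line and 1 earliest passage, so p-values over 24 libraries measure only the spread between libraries. Of the 12 higher and 12 lower genes chosen by rule, 9 passed. These genes were picked for a large passage difference in AMPK KO, which enters this test, so the count and their p-values are a description. Col1a2 differed by 1.02 in AMPK KO and -0.69 in WT, a difference of 1.71 ± 0.21 (adjusted p = 3.9e-05). Fbln5, Fbln2, Kif1a and Olfm1 passed in the same direction. Krt19 and Fgd3 were lower at passage 16 in AMPK KO and differed by 0.30 and 0.06 in WT. Sorbs2 was lower in both genotypes, by -0.90 and -0.97, and its difference did not pass (adjusted p = 0.93).

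The number of calls depended on single libraries of passage 16. Without the DMSO library 48 genes were higher and 75 lower, without the MK-8722 library 57 and 64, and without the torin1 library 479 and 348. With passage as a random block in limma 165 genes were higher and 132 lower. With 1 value per passage, which leaves 1 against 3, limma called 0 genes in each direction, with 1836 autosomal genes (12.0%) at an unadjusted p under 0.05 and a smallest adjusted p of 0.30. Without passage 17 the counts were 206 and 203, without passage 18 they were 505 and 287, and without passage 19 they were 82 and 107. With library size alone as scaling, 512 genes were higher and 116 lower, in place of 317 and 211.

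**Figure D5:**
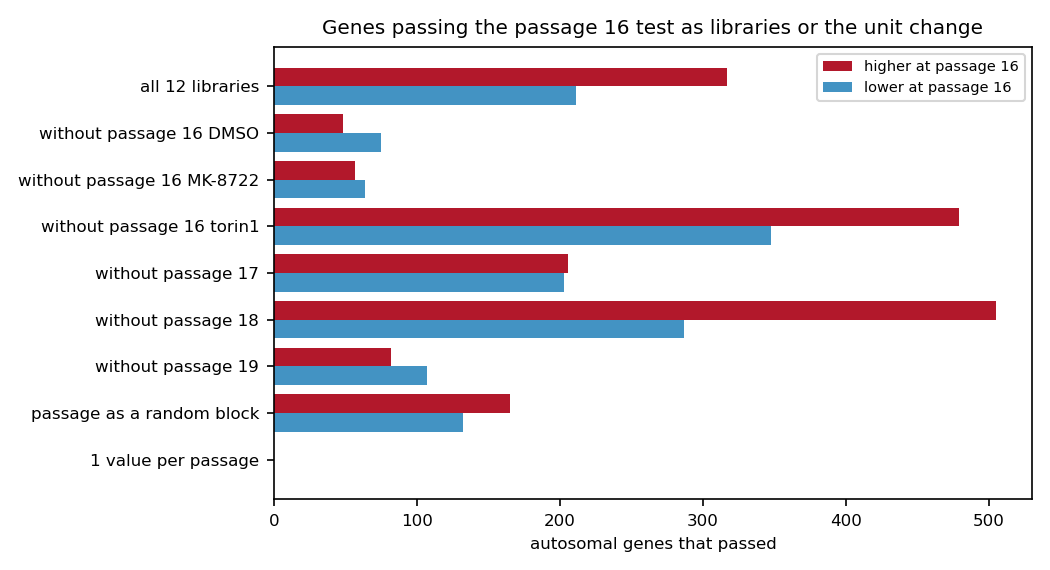
Number of autosomal genes that passed as higher (red) or lower (blue) at passage 16 (x axis, from 0) with all 12 AMPK KO libraries, without single libraries or passages, with passage as a random block, and with 1 value per passage (y axis). The counts run from 0 with 1 value per passage to 505 higher genes without passage 18.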

How the data were processed

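Messenger RNA was sequenced as 52-bp read pairs. Per the labels and the study's methods, the authors aligned reads to GRCm38 with STAR, quantified them with Salmon and deposited estimated counts and TPM per gene. The deposited TPM were not tested. Estimated counts were rounded. Genes were filtered with filterByExpr, scaled by TMM and tested in edgeR 4.0.16 (R 4.3.3) by quasi-likelihood with treatment and passage group as terms. Adjusted p is Benjamini-Hochberg over all genes tested in a fit, 15867 for passage 16 against later passages. The fits of variation with treatment and with genotype were filtered anew and held 15807 and 15803 autosomal genes. SE is the log2 fold change over the square root of F. CPM use TMM-scaled totals. limma 3.58.1 and DESeq2 1.42.0 gave alternatives. The test was checked on simulated counts drawn independently for each library, with no effect shared by the libraries of a passage. The check therefore does not cover spread between cultures. Positions are those of the GRCm38 annotation. Named genes were Prkaa1 and Prkaa2, the top 12 called autosomal genes in each direction by fold change (a mean of at least 5 CPM, passage 16 outside all 3 later libraries in each treatment, no gene model, clone or pseudogene names), up to 4 called members of each list by size of change or, with fewer than 2 called, the 2 most abundant, and by the first conditions the 3 genes with the largest positive and the 3 with the largest negative difference between genotypes. Other called list members were named after their values were seen. The comparison, genes and lists were chosen with earlier results of these data known. Replicate numbers in the titles do not follow passage. Library totals of 29626051 to 33467654 counts leave scarce genes such as Meg3 with few counts each. A few genes named by these rules are not reported here, and counts include them.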

Additional observations from a re-analysis of the deposited data

Results flagged for a closer look

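For 29 of the 121 genes named by rule, the early passage difference varied with genotype by a test of that difference (edgeR, at an adjusted p below 0.05). Values are AMPK KO minus WT of the earliest minus the later passages, on the log2 scale, and the passages differ in number between genotypes. Over all autosomal genes, 789 of 15293 (5.16%) passed this test. Many of the 121 genes were chosen by the size of their passage difference in AMPK KO, others by their level, and 6 by this difference between genotypes, so the count of 29 is a description and nothing is read from it.

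Among imprinted and matrix genes, Postn differed by 3.58 (1.56 in AMPK KO and -2.02 in WT, adjusted p = 0.0052), H19 by 3.09 (1.5 and -1.59, adjusted p = 0.00018), Igf2 by 2.09 (1.63 and -0.46, adjusted p = 1.3e-05) and Meg3 by 1.94. Rian differed by 1.36 and Mmp2 by 1.33. In AMPK KO, Postn, Meg3 and Rian rest on few counts. Postn had 21 to 27 at passage 16 and 2 to 12 later, and Rian 11 to 15 and 1 to 6. The matrix genes Col1a2, Fbln5 and Fbln2 differed by 1.71, 1.27 and 0.653. Fbln2 was higher at the earliest passage in both genotypes, by 0.99 and 0.34.

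Among signalling genes, Bmp4, a growth factor, differed by 1.59 (0.57 and -1.02). Wnt7b differed by -1.02 and Wnt5a by -0.587 (-0.29 and 0.30, adjusted p = 1.5e-05). Among stress response and lipid genes, Slc7a11 differed by -1 (0.45 and 1.46), Vldlr by -0.942 (0.49 and 1.43) and Scd2 by 0.519 (-0.40 and -0.92), each with 1 direction in both genotypes. Cemip, which takes part in the breakdown of hyaluronan, was lower in both genotypes and differed by 1.39. Kif1a and Cemip averaged 0.519 and 0.870 CPM in WT. Kif1a, Olfm1 and Eno2 differed by 1.41, 0.716 and 0.464, and Krt19, Fgd3 and Trp53 by -0.835, -0.638 and -0.289.

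Of genes named for this difference, Cacna1g, a calcium channel subunit, differed by 1.85 (0.22 and -1.63, adjusted p = 0.00030) and Cyp1b1 by 1.80 (0.57 and -1.22, adjusted p = 0.00015). Tmem171 differed by -1.31 (-0.43 and 0.88) and Ccbe1 by -1.54 (-0.81 and 0.74). The fitted differences of Pcp4l1 (2.53) and Hoxb9 (-2.68), a HOX transcription factor, rest on few WT reads. Pcp4l1 had 1 to 3 counts in the 3 WT libraries of passage 12 and 3 to 30 in the 9 later ones, and Hoxb9 had 0 to 6 and 0 to 2. No difference between genotypes is read from either.

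Of 121 genes screened over the 9 later libraries, 2 had a library that stood apart from the rest by Dixon's criterion, which chance meets in about 1 of 20 groups. Both were in torin1 at passage 17. Nes lay 0.109 above the mean of the 3 later torin1 libraries (log2 CPM), and Fnip1 lay at -0.256 from it.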

How the results depend on the processing

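Of 225 alternative counts of genes that passed, 135 lay within 1.5 times the value reported and 90 did not, and no called value of a named gene changed sign. Calls were lost, however, in 507 combinations of named gene and setting, while 3011 kept the outcome reported. Of 31 settings, Extl1 lost its call in 19, Cd24a in 10, Cemip in 9 and Fbln2 in 1. For genes higher and lower at passage 16, library size alone as scaling gave 512 and 116, the adjusted p with no fold limit 588 and 873, a fold limit of 1.5 gave 132 and 21, a test against a fold change of 1.2 gave 19 and 5, no treatment term 2 and 0, passage as a random block 165 and 132, 1 value per passage 0 and 0, and passage as a linear term 6 and 1. A transcript length offset gave 184 higher genes and the RNA integrity number as a covariate 171. Chosen after seeing the data, leaving out passage 17 gave 206 higher genes, passage 18 gave 505, and passage 19 gave 82 and 107 lower. Leaving out single libraries gave 48 to 479 higher and 64 to 348 lower genes.

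For the joint test over passages 17 to 19, no filter gave 867, a length offset 171, no fold limit 771, a fold limit of 1.5 gave 95, and single libraries left out 198 to 536. For the difference between genotypes (798 genes) these were 1212, 527, 1223, 260 and 362 to 981. For variation with treatment, no filter gave 127 and DESeq2 25, and 9 fits without 1 library gave 0 to 1, while a fit without a passage 16 library could not be made. Between passages 16 and 17, no fold limit gave 3073, a fold limit of 1.5 gave 356, and single libraries left out 806 to 1661. Between passages 16 and 18, no filter gave 678, the length offset 171, no fold limit 930, the higher fold 79, and libraries left out 200 to 842. Between passages 16 and 19, the length offset gave 285, no fold limit 1423, the higher fold 140, DESeq2 350, and libraries left out 208 to 1066. Between passages 17 and 18, no filter gave 885, the length offset 368, no fold limit 1410, the higher fold 136, and libraries left out 327 to 560. Between passages 17 and 19 these were 210, 11, 56, 5 and 6 to 21, and between 18 and 19 they were 214, 6, 61, 6 and 13 to 28. The cause of these changes was not tested.

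With the replicate number as a block, 347 genes were higher and 246 lower. The numbers do not pair the samples: libraries of the same number had a median correlation of -0.0036 over 12 pairs (range -0.19 to 0.20).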
